A study of Homo sapiens with 12 samples.

Results

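The genes described here are 10 members of the NOTCH1, FBXW7 and MYC axis, chosen by name: NOTCH1, NOTCH3, RBPJ, HES1, HES4, DTX1, NRARP, FBXW7, MYC and MAX. All 10 were found by symbol among the 60671 genes of the expression table. NOTCH receptors are membrane proteins that are cut after binding a ligand on a neighbouring cell, and the freed intracellular part joins the DNA-binding protein RBPJ to switch on targets such as HES1, HES4, DTX1 and NRARP. FBXW7 is the substrate-binding subunit of an SCF ubiquitin ligase that marks the NOTCH1 intracellular part and MYC, among other proteins, for degradation. MYC, itself a NOTCH1 target in T cell leukemia, binds DNA as a dimer with MAX and drives growth and ribosome genes.

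The study asked how overexpression of the phosphatase PTPN21 alters the response of leukemia cells to vincristine (VCR), a drug that blocks microtubule assembly. RNA was sequenced in 12 libraries, 3 per group, from cells labelled Jurkat, which is a T-ALL line, that is, one grown from an acute leukemia of T cells. Control cells (NC) are labelled WT and, per the study's methods, carried a GFP vector, while PTPN21 cells carried a lentiviral FLAG-tagged PTPN21 driven by the SFFV promoter. Both kinds of cell received either DMSO, the solvent (NC+DMSO and PTPN21+DMSO), or VCR (NC+VCR and PTPN21+VCR) for 48 h, and the VCR dose of the RNA samples is not given in the sources used here. Nothing in the labels says that the 3 libraries of a group came from separate cultures, so p-values measure the spread between these libraries, which may be technical.

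PTPN21 itself followed the labels. Its FPKM (fragments per unit of gene length and of library size) was 0.0212 to 0.0934 in NC+DMSO and 0.16 to 0.569 in NC+VCR, against 7.93 to 10.5 in PTPN21+DMSO and 4.34 to 6.53 in PTPN21+VCR. The T cell identity in the labels was met by only part of the marker list. Of 9 T cell line markers, CD3D (61.8 to 139.7 FPKM) and TAL1 (3.22 to 16.5 FPKM) had a mean FPKM of at least 1, and the other 7, CD3E, CD3G, CD2, CD5, CD7, CD28 and LCK, were under it in the mean, with CD5, CD28 and LCK listed at 0 in all 12 libraries. TAL1 fell with VCR, by 1.22 on the log2 scale in NC cells and 1.42 in PTPN21 cells, as most erythroid genes described below did. It is not read here as a sign of T cell identity. The summed FPKM of the 9 markers was 74.6 to 107 in NC+DMSO, 128 to 157 in PTPN21+DMSO, 112 to 137 in NC+VCR and 111 to 116 in PTPN21+VCR. Among 6 markers of other blood cells, LYZ was at 9.08 to 17.0 FPKM and the other 5 had a mean under 1. In contrast, 11 erythroid genes, a list chosen after their values were seen, all had a mean of at least 1, among them the transcription factor GATA1 (13.5 to 106 FPKM) and the fetal globin HBG2 (559.7 to 2985 FPKM). No value of 16 housekeeping genes was at 0. The identity of the line was not tested, and the values below are given for the cells as labelled.

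**Figure D1:**
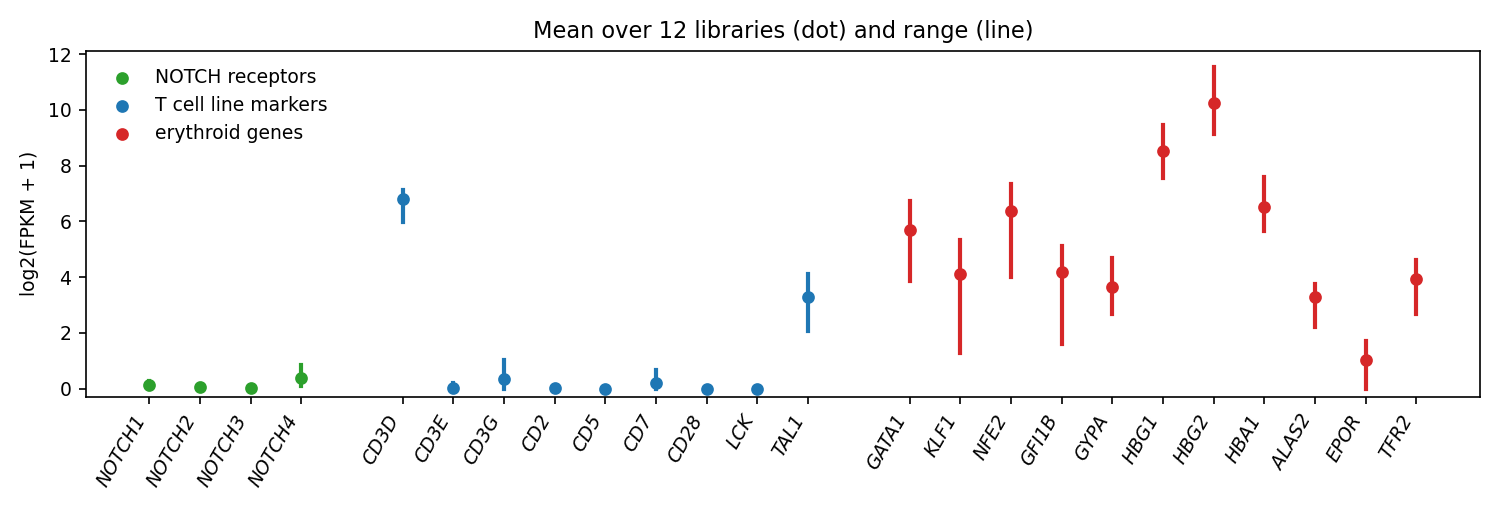
Level of the 4 NOTCH receptors, 9 T cell line markers and 11 erythroid genes on the log2(FPKM + 1) axis, with the mean over 12 libraries as a dot and the lowest to highest library as a line. The NOTCH receptors and 7 of the 9 T cell markers lie near 0, whereas CD3D, TAL1 and the erythroid genes lie above them.

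The 250 bases before the transcription start were searched for the core of the RBPJ binding motif, TGGGAA on either strand, since RBPJ is the DNA-binding partner of NOTCH. The windows of HES1 and HES4, the targets whose expression is described below, each held it, and they are printed 5′ to 3′ in lower case with the core in capitals. The HES1 window lies on the plus strand at chr3:194135898-194136147 and the HES4 stretch on the minus strand at chr1:1000149-1000347 (RefSeq, GRCh38.p14). GENCODE release 29 places the start of HES4 further upstream than RefSeq, and the stretch was shortened for that reason. Of its bases 24 lie inside the gene as GENCODE places it, and these include all but the first base of the core.
HES1: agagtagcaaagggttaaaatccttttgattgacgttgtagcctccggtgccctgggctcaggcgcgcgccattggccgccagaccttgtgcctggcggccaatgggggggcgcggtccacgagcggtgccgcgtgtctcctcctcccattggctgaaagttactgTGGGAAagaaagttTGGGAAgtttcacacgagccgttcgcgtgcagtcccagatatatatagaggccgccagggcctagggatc
HES4: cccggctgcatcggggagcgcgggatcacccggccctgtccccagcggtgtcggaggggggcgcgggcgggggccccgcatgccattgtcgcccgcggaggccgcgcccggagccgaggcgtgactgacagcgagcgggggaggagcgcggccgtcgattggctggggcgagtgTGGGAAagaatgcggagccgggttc
In HES1 the core began 84 and 70 bases before the RefSeq start, in the same orientation, and in HES4 it began 76 bases before it. At least 1 core was present in 20.8% of 35116 such windows and at least 2 in 2.9%. Of the other members with a window (MYC and DTX1 were not searched), only 1 of the 5 RBPJ windows held the core, and the windows of NOTCH1, NOTCH3, NRARP, FBXW7 and MAX held none. The E-box CACGTG, which reads the same on both strands and is bound by MYC and MAX, was in none of the windows searched and in 6.34% of all windows. These matches describe the letters in the windows and no binding was measured.

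The receptors were close to the floor of the measurement. NOTCH1 (ENSG00000148400, chromosome 9 from 136494433 to 136545786, minus strand, in GENCODE release 29 on GRCh38) was at 0.0316, 0.0217 and 0.131 FPKM in NC+DMSO and at 0.213, 0.0654 and 0 in PTPN21+DMSO. It was at 0.0348, 0.208 and 0.126 FPKM in NC+VCR and at 0.0704, 0 and 0.187 in PTPN21+VCR. All 4 groups overlapped. NOTCH3 (ENSG00000074181, chromosome 19 from 15159038 to 15200981, minus strand) reached at most 0.0505 FPKM, in PTPN21+DMSO, and was listed at 0 in all 6 VCR libraries. NOTCH2 and NOTCH4 had means of 0.0462 and 0.303 FPKM, and the 5 ligands DLL1, DLL3, DLL4, JAG1 and JAG2 had means of 0.000991 to 0.728 FPKM. DLL3 was listed at 0 in all 3 NC+VCR libraries and at 0.416 to 1.01 FPKM in the other 9, a pattern picked out after the values were seen. No receptor or ligand entered the test, which was limited to genes with a mean of at least 1 FPKM.

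The other low members were a pair of NOTCH targets. DTX1, which encodes an E3 ligase that acts on NOTCH, was listed at 0 in 11 of 12 libraries and at 0.0201 FPKM in the other one. NRARP, which encodes a feedback inhibitor of NOTCH, was at 1.34, 0.484 and 0.664 FPKM in NC+DMSO and at 0.244, 0.75 and 0.333 in PTPN21+DMSO. Under VCR it was at 0.228, 0.188 and 0.608 FPKM in NC cells and at 0.282, 0.602 and 0.426 in PTPN21 cells. NRARP groups overlapped in all 4 comparisons, whereas NOTCH3 was higher in every PTPN21+DMSO library than in any other. In a fit without the filter none of the 4 low members passed an adjusted p of 0.05, and the lowest value was that of NOTCH3 in PTPN21+VCR against PTPN21+DMSO (limma adjusted p = 0.053), where the difference was -0.06 on the log2(FPKM + 1) scale.

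**Figure D2:**
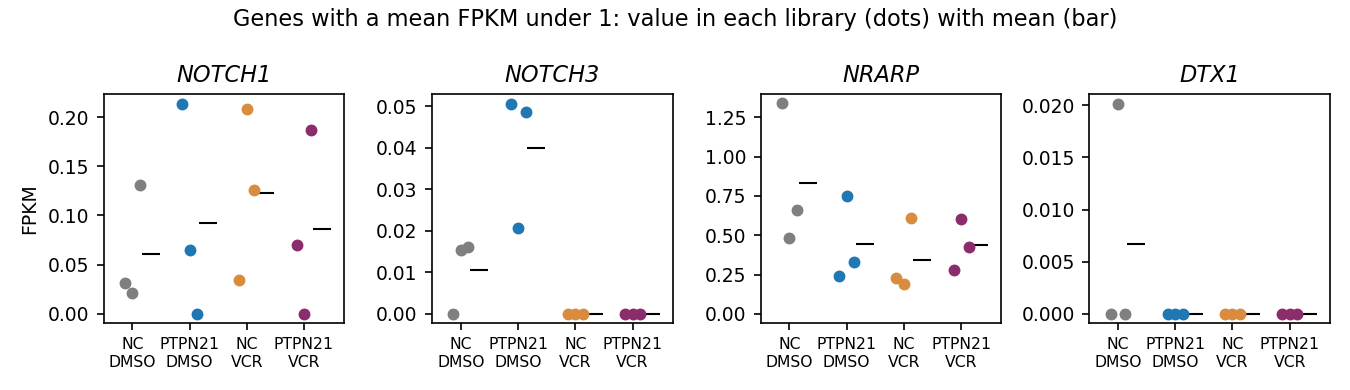
FPKM (y axis, a separate linear scale in each panel) of NOTCH1, NOTCH3, NRARP and DTX1 in the 3 libraries of each group (dots) with the group mean (bar). NOTCH1 overlaps in all groups, NOTCH3 is at 0 in all VCR libraries, and DTX1 is above 0 in 1 library.

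RBPJ, HES1, HES4, FBXW7, MYC and MAX, 6 of the 10 members, had a mean of at least 1 FPKM and were tested with limma on log2(FPKM + 1) among 11591 genes. Changes of low genes are understated on this scale. The 4 pairwise comparisons share groups, so they are not independent of each other. With VCR in NC cells, 2 of the 6 members passed an adjusted p of 0.05, both lower, where 36.2% of all genes passed, 7.91% higher and 28.3% lower. In PTPN21 cells 1 of the 6 passed with VCR, lower, where 28.5% of all genes passed, 9.22% higher and 19.3% lower. With PTPN21 in DMSO 2 of the 6 passed, 1 higher and 1 lower, against 6.34% of all genes, 2.65% higher and 3.69% lower. The member that was higher, HES4, reached a mean of 1 FPKM only through the PTPN21 libraries, so its count is not to be read against that share. With PTPN21 under VCR 0 of the 6 passed in limma, against 1.82% of all genes, 1% higher and 0.82% lower. An unadjusted limma p under 0.05 was found for 3 of the 6, HES4 among them. The share of all genes under that unadjusted p was not counted, so the 3 are not to be read as an excess.

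The groups of 2 members, both lower, did not overlap with VCR in NC cells, where 44.1% of all genes did not overlap, 10.2% higher and 33.9% lower. The same held for 2 members, both lower, with VCR in PTPN21 cells, where the share of all genes was 50.4%, 17% higher and 33.3% lower. For PTPN21 in DMSO it held for 1 member higher and 1 lower, against 33.4% of all genes, 11.5% higher and 21.9% lower. The member higher in DMSO was again HES4, which entered only through the PTPN21 libraries, so it is not to be read against that share. For PTPN21 under VCR it held for 1 member higher, against 22.5% of all genes, 12.3% higher and 10.2% lower. The median log2 fold change of all genes was -0.36 with VCR in NC cells and -0.17 in PTPN21 cells, and it was -0.14 with PTPN21 in DMSO and 0.03 under VCR.

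HES1, a transcriptional repressor and the classical NOTCH target, was the member with the tightest replicates. It lies on chromosome 3 from 194136145 to 194138732 on the plus strand (ENSG00000114315). Its FPKM was 73.9, 75.7 and 71.5 in NC+DMSO and 71.3, 80.6 and 73.4 in PTPN21+DMSO. After VCR it was 25.8, 26.4 and 25.8 in NC cells and 26.4, 23.9 and 23.7 in PTPN21 cells. The mean ± SD of 3 libraries went from 73.7 ± 2.08 to 26 ± 0.365 FPKM in NC cells and from 75.1 ± 4.87 to 24.7 ± 1.53 FPKM in PTPN21 cells. Every VCR library was below every DMSO library, and within each treatment the NC and PTPN21 libraries overlapped. HES1 fell by 1.47 on the log2 scale in NC cells (standard error 0.106, limma adjusted p = 2.94e-06) and by 1.57 in PTPN21 cells (standard error 0.106, limma adjusted p = 1.81e-06). Both falls passed in 21 of 21 alternative settings. The VCR response in PTPN21 cells minus that in NC cells was -0.10 (standard error 0.15, limma adjusted p = 0.787), and the log2 fold change with PTPN21 was 0.02 in DMSO (limma adjusted p = 0.91) and -0.07 under VCR (limma adjusted p = 0.773).

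The erythroid genes moved in the same direction as HES1 with VCR. Their summed FPKM was 1422 to 2186 in NC+DMSO, 3100.2 to 4238 in PTPN21+DMSO, 916 to 951 in NC+VCR and 1143 to 1301 in PTPN21+VCR. With VCR 11 of 11 passed a limma adjusted p of 0.05 as lower in NC cells, where 28.3% of all genes did. In PTPN21 cells 10 of 11 passed as lower, where 19.3% of all genes did. Median ratio scaling gave 8 and 9 lower. With PTPN21 overexpression 3 of the 11 passed as higher in DMSO and 1 under VCR, against 2.65% and 1% of all genes. Median ratio scaling gave 3 and 0 higher. The list was chosen after its values were seen, so its counts are not to be read against these shares. Their part in the results on the members was not tested. In these bulk libraries, fewer cells of a type and less RNA per cell cannot be told apart.

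HES4, a relative of HES1, was near the floor in NC cells. It lies on chromosome 1 from 998962 to 1000172 on the minus strand (ENSG00000188290). Its FPKM was 0.18, 0.298 and 0.633 in NC+DMSO and 3.64, 2.19 and 1.8 in PTPN21+DMSO. Under VCR it was 0.109, 0.515 and 0.89 in NC cells and 1.18, 0.858 and 2.54 in PTPN21 cells. The DMSO groups did not overlap, and the VCR groups overlapped. HES4 was higher by 1.35 on the log2 scale with PTPN21 in DMSO (standard error 0.306, limma adjusted p = 0.03), and the difference under VCR was 0.72 (standard error 0.306, limma adjusted p = 0.25). It reached the mean of at least 1 FPKM only through the PTPN21 libraries, and the call held in 12 of 20 alternatives. Among the settings that ended it were the fit without the filter (limma adjusted p = 0.0833), the fit with the compared groups alone (0.0715), and those without NC+DMSO replicate 1 (0.0844) or 3 (0.0672) or without PTPN21+DMSO replicate 1 (0.132), 2 (0.0538) or 3 (0.0583). With VCR the log2 fold change of HES4 was 0.11 in NC cells (limma adjusted p = 0.793) and -0.51 in PTPN21 cells (limma adjusted p = 0.236).

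RBPJ (ENSG00000168214, chromosome 4 from 26163455 to 26435131, plus strand) was lowest where PTPN21 overexpression and VCR were combined. Its FPKM was 21.5, 21.6 and 18.6 in NC+DMSO, 21.3, 11.9 and 16 in PTPN21+DMSO, 23.0, 18.4 and 10.1 in NC+VCR and 9.11, 8.34 and 11.3 in PTPN21+VCR. The PTPN21+VCR libraries lay below all PTPN21+DMSO libraries and overlapped NC+VCR through its replicate 3. The log2 fold change was -0.69 against PTPN21+DMSO (standard error 0.271, limma adjusted p = 0.0745) and -0.72 against NC+VCR (limma adjusted p = 0.192), so neither passed. Without NC+VCR replicate 3 both passed, at -0.69 (limma adjusted p = 0.0278) and -1.04 (0.0426), and the former also passed without PTPN21+DMSO replicate 2, at -0.89 (limma adjusted p = 0.0479), and with the compared groups alone (limma adjusted p = 0.0441).

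FBXW7 was the member whose VCR response differed between NC and PTPN21 cells. The gene lies on chromosome 4 from 152320544 to 152536063 on the minus strand (ENSG00000109670), and an antisense gene that overlaps its exons, FBXW7-AS1, was listed at 0. Its FPKM was 17.4, 14.2 and 23.1 in NC+DMSO, 7.64, 7.92 and 6.1 in PTPN21+DMSO, 3.55, 4.37 and 5.25 in NC+VCR and 9.87, 7.35 and 9.05 in PTPN21+VCR. NC+DMSO was above, and NC+VCR below, every library of the other groups, while PTPN21+DMSO and PTPN21+VCR overlapped. The means ± SD of 3 libraries were 18.2 ± 4.54, 7.22 ± 0.981, 4.39 ± 0.852 and 8.76 ± 1.29 FPKM in the same order of groups.

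In NC cells FBXW7 fell by 1.82 on the log2 scale with VCR (standard error 0.211, limma adjusted p = 8.29e-05), a call kept in 21 of 21 alternatives. In PTPN21 cells the change with VCR was 0.25 (standard error 0.211, limma adjusted p = 0.417). In DMSO FBXW7 was lower with PTPN21 overexpression (log2 fold change -1.21, standard error 0.211, limma adjusted p = 0.0124), and this was lost without PTPN21+DMSO replicate 1 (limma adjusted p = 0.0551) and with the compared groups alone (limma adjusted p = 0.067). Under VCR FBXW7 was 0.86 higher in PTPN21 cells, with groups that did not overlap, but the limma adjusted p was 0.0616. It was 0.0402 without NC+DMSO replicate 3 and 0.0422 when only genes with a mean of at least 5 FPKM were tested.

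The difference between the 2 VCR responses of FBXW7 was 2.07 on the log2 scale (standard error 0.299, limma adjusted p = 0.0218). FBXW7 was 1 of 15 genes, 0.129% of those tested (0.0259% higher and 0.104% lower), that passed this interaction test, and the only member. It passed in 14 of 20 alternatives. Among the settings that ended the call were the fit without the filter (limma adjusted p = 0.0668) and those without NC+DMSO replicate 1 (0.0637), PTPN21+DMSO replicate 3 (0.0747), PTPN21+VCR replicate 1 (0.0748) or PTPN21+VCR replicate 3 (0.0596), while the difference stayed between 1.89 and 2.22 when any 1 library was left out.

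MYC was measured at high but unstable levels. Its FPKM was 22.2, 53.5 and 43.5 in NC+DMSO, 42.7, 41.7 and 5.04 in PTPN21+DMSO, 42.8, 42.7 and 5.84 in NC+VCR and 44.8, 15.8 and 42.7 in PTPN21+VCR. Between 41 and 45 FPKM lay 7 of the 12 libraries, and each group had at least 1 library outside that band. The pooled replicate SD of MYC (ENSG00000136997) was 1.24 on the log2 scale, above that of 99.1% of genes tested, against a median of 0.303 over those genes and 0.066 for HES1. No pairwise MYC comparison passed, with limma adjusted p from 0.527 to 0.837 and log2 fold changes between -0.77 and 0.53, each with a standard error of 0.828. The difference between the VCR responses of PTPN21 and NC cells was 1.23 (standard error 1.17, limma adjusted p = 0.647). The sign of the NC response to VCR turned from -0.70 to 0.19 without NC+VCR replicate 3, and that of the PTPN21 response from 0.53 to -0.42 without PTPN21+DMSO replicate 3. A change of MYC RNA was not detectable in either direction in these libraries.

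MAX (ENSG00000125952, chromosome 14 from 65006174 to 65102695, minus strand) was at 35.1, 25.5 and 43.5 FPKM in NC+DMSO, 20.3, 26.3 and 18.6 in PTPN21+DMSO, 24.2, 25.6 and 35.7 in NC+VCR and 28.2, 14.2 and 24.6 in PTPN21+VCR. All 4 pairs of groups overlapped. The largest difference was -0.63 with PTPN21 in DMSO (standard error 0.265, limma adjusted p = 0.16), and no MAX comparison passed.

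**Figure D3:**
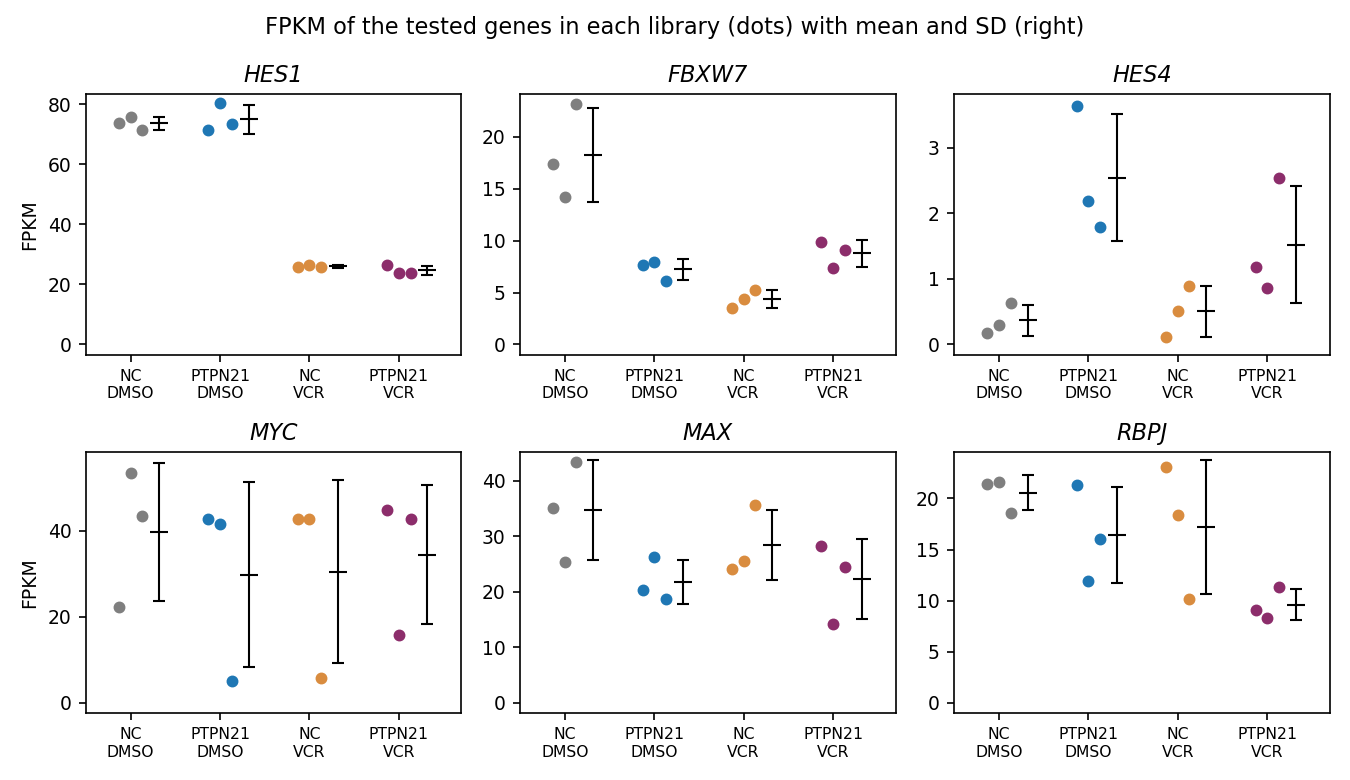
FPKM (linear axis from 0, separate in each panel) of the 6 tested members in the 3 libraries of each group (dots), with the group mean and SD to the right. HES1 separates by VCR alone, FBXW7 is highest in NC+DMSO and lowest in NC+VCR, and the MYC libraries of a group lie far apart.

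**Figure D4:**
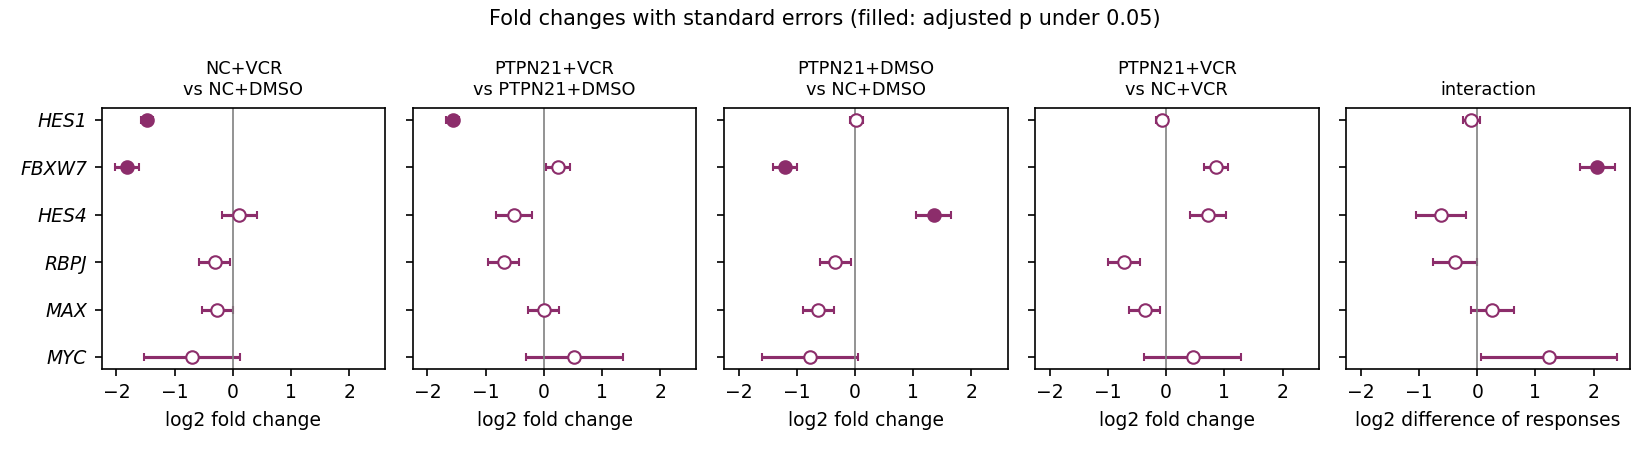
Log2 fold change of the 6 tested members (x axis) with standard error bars in the 4 comparisons, and in the last panel the difference between the VCR responses of PTPN21 and NC cells. Filled points passed an adjusted p of 0.05: HES1 and FBXW7 with VCR in NC cells, HES1 in PTPN21 cells, FBXW7 and HES4 with PTPN21 in DMSO, and FBXW7 for the difference of responses.

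The 12 libraries were also used to find the genes whose levels were most like those of 3 members, by Pearson's r of log2(FPKM + 1). For FBXW7 these were ZNF641 (r = 0.956), HASPIN (r = 0.94) and POP4 (r = 0.932), for MYC TANC2 (r = 0.818), IRF2BPL (r = 0.811) and AC097382.3 (r = 0.778), and for NOTCH1 AC007546.2 (r = 0.74), MELTF (r = 0.728) and NPIPB15 (r = 0.705). These are the highest r among the 11591 genes tested, over 12 points that share library and group, so the values are a description. NOTCH1 was near the floor (at most 0.213 FPKM, and 0 in 2 libraries), so its r values describe levels close to 0.

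A wider list of 122 pathway genes, members included, placed these changes among their partners. Genes of these lists that rose or fell are those past a limma adjusted p of 0.05. The members and lists were chosen with earlier results of these data known. Their counts beside the shares of all genes are thus a description and no test. Of the 94 tested, 6 rose and 37 fell with VCR in NC cells, where 7.91% of all genes rose and 28.3% fell. The median log2 fold change was -0.53 beside -0.36 over all genes. In PTPN21 cells 10 rose and 25 fell, where 9.22% of all genes rose and 19.3% fell, with a median of -0.34 beside -0.17. With PTPN21 in DMSO 2 rose and 7 fell, against 2.65% and 3.69% of all genes. HES4, which reached the filter only through the PTPN21 libraries, was among those that rose. With PTPN21 under VCR 0 passed in limma, against 1.82% of all genes, and 16 had an unadjusted p under 0.05. The share of all genes under that unadjusted p was not counted, so the 16 are not to be read as an excess. In the test of the difference between the VCR responses 1 of the 94 passed, FBXW7, against 0.129% of all genes. A VCR change named below in 1 cell type is therefore not shown to be particular to it. Scaling each library by the median ratio, which brings the median of all genes to -0.04 in NC cells, gave 12 higher and 19 lower in NC cells and 10 higher and 17 lower in PTPN21 cells. With PTPN21 in DMSO it gave 5 higher and 4 lower. The shares of all genes given beside the lists are from the fit without that scaling. Counts under median ratio scaling, here and in the lists below, are not to be read against them.

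Genes that mature and cut NOTCH were expressed, unlike the receptors. Of 14 genes 12 were tested, and with VCR in NC cells 4 fell, among them NCSTN, a subunit of γ-secretase (log2 fold change -0.97, limma adjusted p = 0.0079), and POGLUT1, which adds glucose to NOTCH (log2 fold change -0.96, limma adjusted p = 0.00754). The median of the 12 was -0.55 beside -0.36 over all genes, of which 28.3% were lower. With median ratio scaling 1 fell and 1 rose. ADAM17, a protease that cuts membrane proteins, was lower with PTPN21 in DMSO (log2 fold change -0.79, limma adjusted p = 0.0378), a call held in 10 of 21 alternatives. It rose with VCR in PTPN21 cells (log2 fold change 1.00, limma adjusted p = 0.00288), as in 21 of 21. Of the 13 tested genes of the nuclear complex and its corepressors, 4 fell with VCR in NC cells, led by the coactivator CREBBP (log2 fold change -1.37, limma adjusted p = 0.0116) and the corepressor SPEN (log2 fold change -1.15, limma adjusted p = 0.0234), and 1 fell and 3 rose under median ratio scaling. Their median was -0.51, and the counts of both lists are near the share of all genes. Of the 6 tested genes of NOTCH endocytosis and ubiquitination, DTX2 fell in NC cells (log2 fold change -0.92, limma adjusted p = 0.0302) and ITCH rose in PTPN21 cells (log2 fold change 0.96, limma adjusted p = 0.0411). Each call held in 13 of 20 alternatives, and neither gene passed in the other cell type. Mean DTX2 went from 2.5 to 1.56 FPKM with VCR in PTPN21 cells and mean ITCH from 4.72 to 6.95 FPKM in NC cells. The medians of the 6 were -0.21 in NC cells and 0.24 in PTPN21 cells, beside -0.36 and -0.17 over all genes. Of all genes 9.22% rose in PTPN21 cells. Median ratio scaling gave 0 lower and 1 higher of the 6 in NC cells.

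Among 15 genes listed as NOTCH targets 8 were tested. With VCR 4 fell and 1 rose in NC cells, and 3 fell in PTPN21 cells, with HES1 among those that fell in both. Of all genes 28.3% fell and 7.91% rose in NC cells, and 19.3% fell in PTPN21 cells. The medians were -0.72 and -0.52, beside -0.36 and -0.17 over all genes. Whether the listed genes answer to NOTCH in these cells was not tested. HES6, a relative of HES1 placed in the list by name, fell by 1.42 in NC cells (limma adjusted p = 0.00152). It fell by 1.43 in PTPN21 cells (limma adjusted p = 0.00173), and both falls passed in 21 of 21 alternatives. TRIB2 fell by 1.28 in NC cells (limma adjusted p = 0.0159) and CCND3, the gene of cyclin D3, by 1.09 in PTPN21 cells (limma adjusted p = 0.0308). Neither of these 2 genes passed in the other cell type. Mean TRIB2 went from 12.4 to 8.45 FPKM with VCR in PTPN21 cells and mean CCND3 from 10.1 to 5.54 FPKM in NC cells. The target that rose was HEY1 (log2 fold change 0.66, limma adjusted p = 0.0431), named after its value was seen, and this call held in 5 of 20 alternatives. Median ratio scaling gave 2 targets lower and 1 higher in NC cells, and 2 lower in PTPN21 cells.

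Subunits and regulators of the FBXW7 ligase moved in both directions. Of 8 genes, 3 rose and 3 fell with VCR in NC cells, where 7.91% of all genes rose and 28.3% fell. In PTPN21 cells 3 rose and 1 fell, where 9.22% of all genes rose and 19.3% fell. The medians were 0.10 and 0.455, beside -0.36 and -0.17 over all genes. FBXW7 was among those that fell in NC cells. Under median ratio scaling the split in NC cells was 3 higher and 1 lower. CUL1, the scaffold of the ligase, rose by 0.71 in NC cells (limma adjusted p = 0.00371) and by 1.04 in PTPN21 cells (limma adjusted p = 0.000413). RBX1, its RING subunit, rose by 1.07 in NC cells (limma adjusted p = 0.000653) and by 0.67 in PTPN21 cells (limma adjusted p = 0.0117), and was 0.98 higher with PTPN21 in DMSO (limma adjusted p = 0.0124). NEDD8, the modifier that activates cullins, rose in both cell types, by 0.57 (limma adjusted p = 0.00874) and 0.88 (limma adjusted p = 0.000816).

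Genes of FBXW7 substrates moved in both directions, and their proteins were not measured here. Of 10 tested, 1 rose and 3 fell with VCR in NC cells, near the 7.91% and 28.3% of all genes. In PTPN21 cells 3 rose and 0 fell, where 9.22% of all genes rose and 19.3% fell. The medians were -0.40 and 0.15, beside -0.36 and -0.17 over all genes. Under median ratio scaling 2 rose and 1 fell in NC cells. JUN, a stress-induced transcription factor, rose by 2.04 (limma adjusted p = 5.29e-06) and 1.85 (limma adjusted p = 1.02e-05). AURKA, a mitotic kinase, rose by 1.51 in PTPN21 cells (limma adjusted p = 0.000458) and was lower with PTPN21 in DMSO (log2 fold change -1.03, limma adjusted p = 0.0255). The call in DMSO held in 14 of 21 alternatives. In NC cells mean AURKA went from 101 to 146 FPKM with VCR and did not pass. CCNE2, which encodes cyclin E2, fell by 1.34 with VCR in NC cells (limma adjusted p = 0.00324). In PTPN21 cells mean CCNE2 went from 3.67 to 2.34 FPKM with VCR and did not pass.

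Targets of MYC mostly fell with VCR in both cell types. Of 23 tested, 16 fell and 1 rose in NC cells, with a median of -0.88 beside -0.36 over all genes. In PTPN21 cells 17 fell and 1 rose, with a median of -0.71 beside -0.17. Of all genes 28.3% fell and 7.91% rose in NC cells, and 19.3% fell and 9.22% rose in PTPN21 cells. As the list was chosen with earlier results known, its counts beside these shares are a description. SRM, which makes spermidine, fell by 1.76 in NC cells (limma adjusted p = 6.91e-05) and by 1.97 in PTPN21 cells (limma adjusted p = 3.17e-05), and CDK4, a cell cycle kinase, fell by 1.55 (limma adjusted p = 8.48e-05) and 1.39 (limma adjusted p = 0.000196). TFRC, the transferrin receptor, fell by 2.14 in NC cells (limma adjusted p = 2.62e-05) and was also lower with PTPN21 in DMSO (log2 fold change -1.08, limma adjusted p = 0.0178). The call in DMSO held in 15 of 21 alternatives. In PTPN21 cells mean TFRC went from 27.2 to 17.7 FPKM with VCR. The gene that rose in both was NPM1 (0.48, limma adjusted p = 0.00156, and 0.42, limma adjusted p = 0.00405), named after its values were seen. With median ratio scaling 11 fell and 1 rose in NC cells and 13 fell and 1 rose in PTPN21 cells. Of the 16 tested genes of the MYC and MAX network, the repressors MXD3 (log2 fold change -1.40, limma adjusted p = 0.0153) and MNT (log2 fold change -1.09, limma adjusted p = 0.0123) fell with VCR in NC cells, and 0 passed in PTPN21 cells in limma, where 1 had an unadjusted p under 0.05. The medians of the 16 were -0.67 and -0.31, and the counts that fell were below the share of all genes.

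**Figure D5:**
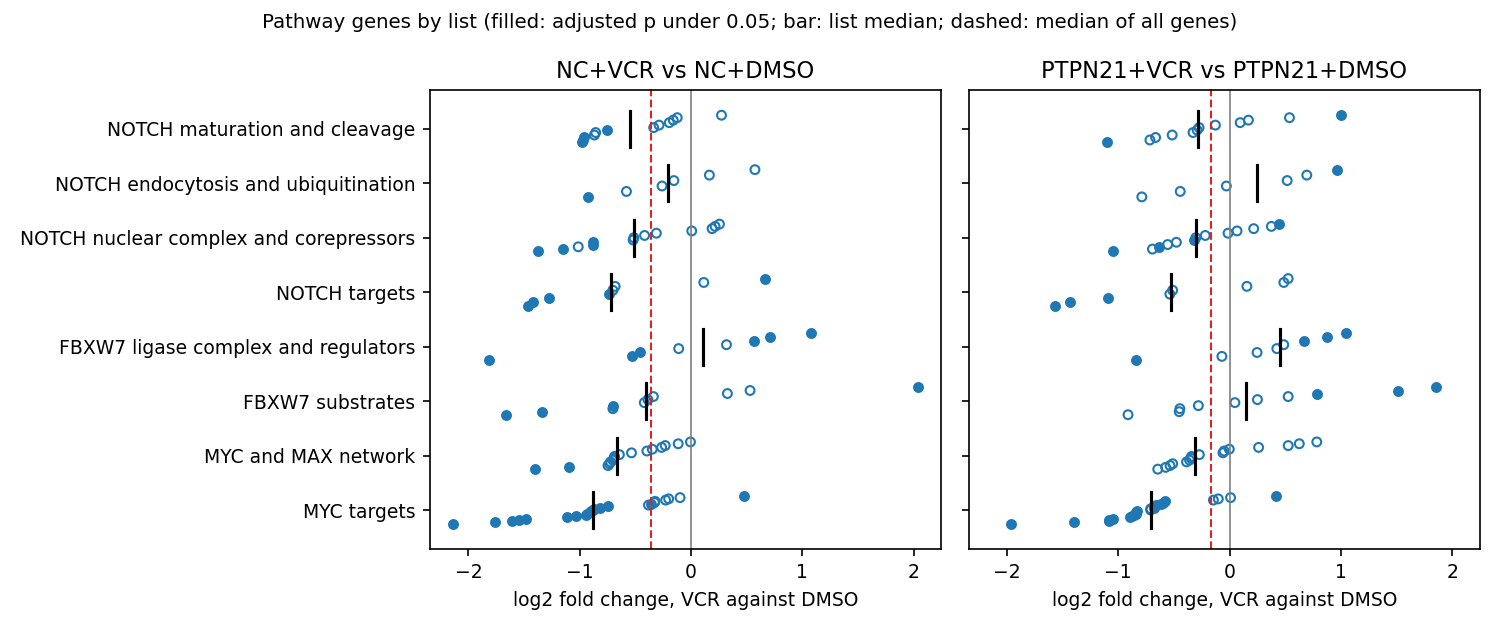
Log2 fold change with VCR (x axis) of each tested gene of 8 pathway lists (rows) in NC cells (left) and PTPN21 cells (right), filled where the adjusted p was under 0.05, with the list median as a bar and the median of all genes dashed. The MYC targets lie mostly to the left of the dashed line in both panels, and FBXW7 is the leftmost point of its list in the left panel.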

How the data were processed

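RNA-seq was analysed in 12 libraries grouped by GEO's labels. The authors deposited 1 table of FPKM values, made by an outside company. The submitters' processing notes name fastp, Bowtie2 and the mouse build mm10, although the identifiers are human Ensembl genes, of which 96.3% are in GENCODE release 29 (GRCh38), used here for positions. The counting program, annotation and filters are not given in the sources used here.

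The deposited FPKM were converted to log2(FPKM + 1). The 11591 genes whose FPKM averaged 1 or more were fitted with limma 3.58.1 in R 4.3.3, with an intensity trend, 4 group means in 1 model and no block. Adjusted p-values (Benjamini-Hochberg, threshold 0.05) cover every gene tested. The members and lists were chosen with earlier results of these data known. Named from each wider list were up to 4 genes per comparison past the threshold with the largest absolute log2 fold change. The fit was tested on simulated data. Sequences came from RefSeq (GRCh38.p14). Scaling to 16 housekeeping genes and the erythroid list were chosen after seeing the data. Figures used Python 3.11.15 and matplotlib 3.10.9.

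Depth is unknown. FPKM times length of 8708 single-exon genes was compared with whole fragments (tolerance 0.1) over a range of depths, a range widened after a narrower search was seen to decide the answer. The best depths were 28.7 to 35.9 M fragments (M, mega) in NC and 40.9 to 47.8 M in PTPN21 libraries, with 41.0% to 51.2% of low values near whole, but depths smaller by a factor of 2 matched 31.5% to 43.9%, so neither the depth nor its order between NC and PTPN21 libraries was settled.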

Additional observations from a re-analysis of the deposited data

Results flagged for a closer look

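The VCR response of FBXW7 differed between PTPN21 and NC cells by 2.07 on the log2 scale in a test of the difference itself (standard error 0.299, limma adjusted p = 0.0218). FBXW7 fell in NC cells by 1.82, whereas the change in PTPN21 cells was 0.25. Its limma adjusted p ranged from 0.0172 to 0.0748 over 20 alternatives. No rule for single outlying values was applied to groups of 3 libraries, but each library was left out in turn.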

How the results depend on the processing

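Each result was recomputed without a filter, with a filter at a mean of 5 FPKM, with a pseudocount of 0.1, with scaling by TPM, by median ratio or to housekeeping genes, without the limma trend, with the compared groups alone, a replicate block and each library left out. HES1 and FBXW7 with VCR in NC cells, and HES1 in PTPN21 cells, passed under all of them. With unknown depth, no counting error could be given for members near 0 FPKM.

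With VCR in NC cells, the compared groups alone gave 27 pathway genes and 2674 genes in all, against 43 and 4192. With VCR in PTPN21 cells they gave 2 members against 1. With PTPN21 in DMSO (2 members, 9 pathway genes, 735 genes), no filter gave 1, 2 and 177, the compared groups alone 0, 0 and 40, a mean FPKM of at least 5 gave 1 member and limma without the trend 321 genes. With PTPN21 under VCR (0, 0 and 211), no filter gave 1 pathway gene and 118 genes, a mean of at least 5 gave 1 member, 3 pathway genes and 344 genes, TPM and median ratio scaling 1 pathway gene each, limma without the trend 72 genes, housekeeping scaling 135 and the compared groups alone 117. For the difference of responses (1, 1 and 15), no filter gave 0, 0 and 8, a mean of at least 5 gave 8 genes and limma without the trend 9.

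Median ratio scaling moved the share of higher calls over all genes from 21.9% to 55.8% with VCR in NC cells, from 32.3% to 52.2% in PTPN21 cells and from 41.8% to 73.6% with PTPN21 in DMSO, where TPM scaling gave 21.0% and housekeeping scaling 53.2%.

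Replicate numbers did not pair the libraries, since deviations of 18 same-numbered pairs correlated at -0.145 to 0.0583. With the replicate block, PTPN21 in DMSO gave 1 member, 4 pathway genes and 242 genes, PTPN21 under VCR 74 genes, and the difference of responses 0 members, 0 pathway genes and 8 genes. The members whose calls ended under the block were HES4 with PTPN21 in DMSO (limma adjusted p = 0.0521) and FBXW7 for the difference of responses (limma adjusted p = 0.061).

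With each library left out in turn, VCR in NC cells gave 2 members in every case, 32 to 41 pathway genes and 3224 to 4024 genes, and VCR in PTPN21 cells 1 to 2 members, 24 to 37 pathway genes and 2353 to 3619 genes. PTPN21 in DMSO gave 0 to 2 members, 0 to 16 pathway genes and 67 to 1345 genes, PTPN21 under VCR 0 to 1, 0 to 3 and 43 to 354, and the difference of responses 0 to 1, 0 to 2 and 7 to 30. The gene counts with PTPN21 in DMSO were lowest without PTPN21+DMSO replicate 1 (67) and highest without NC+DMSO replicate 2 (1345), those under VCR lowest without PTPN21+VCR replicate 2 (43) and highest without NC+DMSO replicate 3 (354), and those for the difference lowest without NC+DMSO replicate 1 (7) and highest without NC+DMSO replicate 2 (30). Log2 fold changes changed sign for RBPJ (-0.548 to 0.00699) and HES4 (-0.0668 to 0.318) with VCR in NC cells, for MAX with VCR in PTPN21 cells (-0.19 to 0.28), for HES1 with PTPN21 in DMSO (-0.0266 to 0.0603), and for MYC in all 4 comparisons (-1.15 to 0.19, -0.42 to 1.01, -1.25 to 0.17 and -0.44 to 0.93).

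With median ratio scaling the VCR response in NC cells reversed to 0.0604 for RBPJ and 0.12 for MAX, and that of MAX in PTPN21 cells to 0.18 (0.0415 with housekeeping scaling). With TPM scaling HES1 with PTPN21 in DMSO was -0.12. None of these passed, and the causes of the changes were not tested.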
